A study of Rattus norvegicus with 9 samples.

Results

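The MHC class II antigen presentation genes were followed in 9 rat livers. They were taken as the probe sets whose only gene symbol in the platform annotation was Cd74, RT1-Da, RT1-Db1, RT1-Ba, RT1-Bb, RT1-DMa, RT1-DMb or Ciita. This matching by symbol used no measured value, but the genes were chosen with earlier results of these data known. The rule found 14 of 31042 probe sets, which stand for 8 of 14217 genes with a probe set of their own. Of these, 13 probe sets passed the filter on dim signals, and all 8 genes had at least 1 that did.

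Liver RNA came from a drug group, for which the study's title names 7-P, a model group and a control group, with 1 array for each rat and 3 rats in each group. All were labelled as male Wistar rats of 180 to 220 g. The 3 rats of each group were drawn at random from 12, out of 36 rats in the study. What was done to the model rats, what 7-P is, whether the drug rats had the model treatment too, the dose and the age of the rats are not given in the sources used here. A whole piece of liver holds hepatocytes together with macrophages, endothelium and lymphocytes, so fewer cells of a type and less RNA in each cell cannot be told apart.

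Class II molecules are pairs of an alpha and a beta chain that show peptides from swallowed material to CD4+ T cells. In the endoplasmic reticulum each pair is held by the invariant chain, encoded by Cd74. In endosomes that chain is cut down by proteases such as cathepsin S, and the DM molecule then swaps its last fragment for a peptide. In liver the molecules are known from Kupffer cells, dendritic cells and B cells, while resting hepatocytes carry little. CIITA, which does not bind DNA itself, switches the set on through the RFX complex on the X box and NF-Y on the Y box, short motifs that lie in a fixed order before these genes.

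Promoter sequences from RefSeq (build GRCr8), running from 250 bases before to 50 after the start site, were found for 6 of the 8 genes. They are shown because these motifs are the element that the genes are known to share, and most of their values were correlated across the rats. The search took the letters GNNAC, any 3 bases and TG, a loose form of the X box chosen with these promoters in view. Read along the gene, it had to be followed after 10 to 40 bases by ATTGG, the core of the Y box, on either strand. The X box letters alone, on either strand, were in 39.8% of the 33469 promoters of the same length, and ATTGG alone in 37.5%. The ordered pair was in 1.18% of all promoters and in 5 of the 6 class II promoters. Because the letters were chosen with these promoters in view, these shares are no test of enrichment. The windows below run 5′ to 3′ along the gene, and capitals mark the matched letters. They lie at chr18:56526980-56527031 (plus strand) for Cd74, chr20:4515323-4515380 (plus) for RT1-Da, chr20:4560228-4560284 (minus) for RT1-Db1, chr20:4576974-4577028 (plus) for RT1-Ba, chr20:4604165-4604221 (minus) for RT1-Bb and chr20:4712385-4712442 (minus) for RT1-DMa.
Cd74: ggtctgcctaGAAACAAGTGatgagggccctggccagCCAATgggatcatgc
RT1-Da: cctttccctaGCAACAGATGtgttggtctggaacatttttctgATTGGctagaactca
RT1-Db1: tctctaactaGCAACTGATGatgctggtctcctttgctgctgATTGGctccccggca
RT1-Ba: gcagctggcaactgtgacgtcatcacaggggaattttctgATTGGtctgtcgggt
RT1-Bb: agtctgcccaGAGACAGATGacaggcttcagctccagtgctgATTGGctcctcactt
RT1-DMa: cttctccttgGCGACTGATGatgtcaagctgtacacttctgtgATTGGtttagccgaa

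Between the matches lay 22 or 23 bases in RT1-Da, RT1-Db1, RT1-Bb and RT1-DMa. In Cd74 they were 17 bases apart, and the Y box core read CCAAT, its other strand. The RT1-Ba window holds ATTGG, and these X box letters were not matched ahead of it at that spacing. The miss depends on the letters chosen for the search, so it does not show that RT1-Ba lacks an X box. A match of letters does not show that a factor binds there, and binding was not measured. The 6 RT1 genes lie together on chromosome 20 between positions 4515393 and 4712335, while Cd74 lies on chromosome 18 and Ciita on chromosome 10.

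The deposited signals had no common scale, with trimmed means from 33.6 to 81.1 units, so levels below are log2 signals after quantile normalization. The 3′ to 5′ signal ratio of Gapdh, a measure of RNA quality, ran from 1.31 to 9.20 in drug, 4.09 to 12.7 in model and 1.52 to 3.14 in control arrays. Every model array was above every control array in this ratio. In model against control, RNA quality by this ratio and group thus cannot be told apart, also with a term for it in the fit. Xist is an X-linked RNA made in females, while all rats were labelled male. It was at 3.05 in drug 3 and 2.65 in control 2, which goes with that label. The other 7 arrays, every model array among them, were between 8.06 and 10.9, which goes against it. High and low arrays were thus spread unevenly over the groups, and the results are also given without drug 3 and control 2. Levels of different genes come from different probes and are not compared with each other.

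Cd74 and the genes of the RT1-D and RT1-B chains varied together from rat to rat, and no gene passed the test between groups. Ciita, read from 1 dim probe set, had an r of 0.482 to 0.675 with the other genes and passed the correlation test with none of them. Over 9 arrays this does not show that Ciita varied apart from the set. Model 2 and drug 1 were high in the whole set, while drug 2 and control 2 were low. All 8 genes were above their own mean over the 9 arrays in both drug 1 and model 2. None was above it in drug 2 or control 2, where all 8 lay among the lowest 3 arrays. The highest array of a gene was drug 1 or model 2, with 4 genes each, and the lowest was control 2 for 5 genes and drug 2 for 3.

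**Figure D1:**
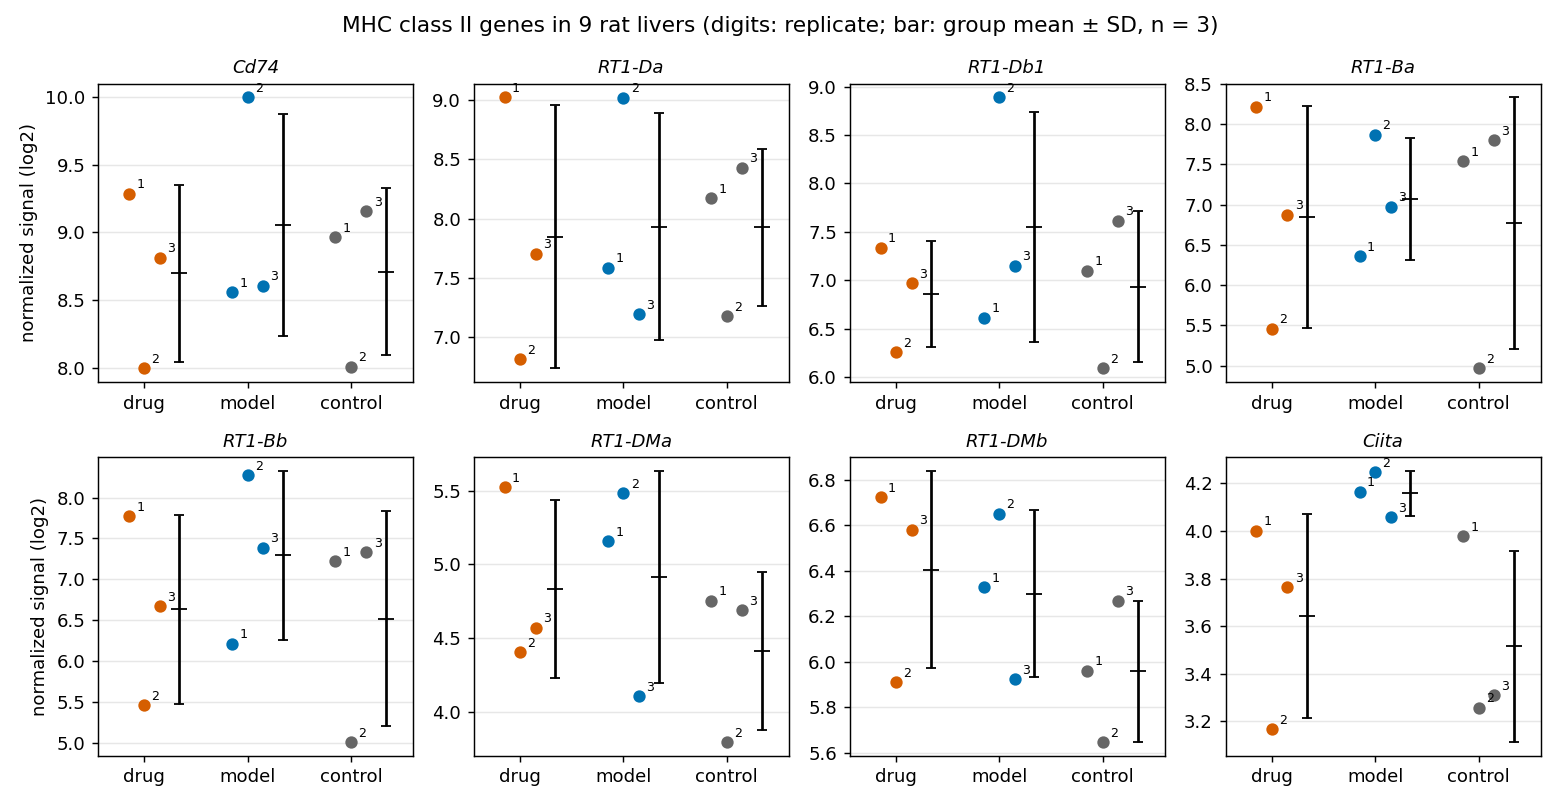
Normalized log2 signal (y axis) of the brightest probe set of each of the 8 genes in drug, model and control livers. Points are single rats marked with their replicate number, and the black marks are group means ± SD (n = 3). In every panel drug 2 and control 2 lie among the lowest points and model 2 and drug 1 near the top, and only the model points of Ciita lie clear of both other groups.

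Cd74, the invariant chain, was measured by 1 probe set, at the 97.0th percentile of mean signal. Its log2 level was 9.29, 7.997 and 8.81 in drug 1, 2 and 3, against 8.56, 9.998 and 8.61 in the model rats and 8.97, 8.01 and 9.15 in the control rats. Model 2 stood 4.001-fold above drug 2. The group means were 8.70 ± 0.652 in drug, 9.05 ± 0.817 in model and 8.71 ± 0.614 in control livers (SD, n = 3 each), and all 3 groups overlapped. Cd74 differed by 0.34 (SE 0.475) in model against control, with a limma adjusted p of 0.763. The difference was -0.36 (SE 0.475, limma adjusted p = 0.998) for drug over model. For drug over control it was -0.011 (limma adjusted p = 0.996).

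RT1-Da and RT1-Db1 encode the alpha and beta chain of RT1-D, the rat counterpart of human HLA-DR. RT1-Da was at 9.02, 6.82 and 7.71 in drug rats, against 7.59, 9.02 and 7.196 in model rats and 8.17, 7.18 and 8.43 in control rats. Drug 1 and model 2 were level at the top and drug 2 was lowest, a span of 4.61-fold that lay almost wholly inside the groups. The group means of RT1-Da were 7.85 ± 1.11 in drug, 7.93 ± 0.959 in model and 7.93 ± 0.659 in control livers (SD, n = 3 each). Only 0.255% of its variance lay between the groups.

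RT1-Db1 had 2 probe sets, of which the brighter is of a type whose probes can match more than 1 transcript. It was at 7.34, 6.26 and 6.97 in drug rats, against 6.61, 8.89 and 7.15 in model rats and 7.10, 6.09 and 7.62 in control rats. Model 2 was clear of all other arrays here, 6.97-fold above control 2. The second probe set was at 5.97, 4.85 and 5.63 in drug, 5.26, 7.23 and 6.74 in model and 5.92, 2.35 and 5.87 in control rats. It put control 2 far below the rest, which the brighter probe set did not. Its difference in model against control was 1.70 (SE 0.888), with a limma adjusted p of 0.449.

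RT1-Ba and RT1-Bb encode the chains of RT1-B, the counterpart of human HLA-DQ, and these showed the widest span among the brightest probe sets. RT1-Ba was at 8.22, 5.46 and 6.87 in drug rats, against 6.36, 7.87 and 6.97 in model rats and 7.54, 4.97 and 7.80 in control rats. RT1-Bb was at 7.77, 5.47 and 6.67 in drug rats, against 6.22, 8.27 and 7.39 in model rats and 7.23, 5.02 and 7.33 in control rats. Both were lowest in control 2 and next lowest in drug 2, with a span of 9.54-fold for RT1-Ba and 9.55-fold for RT1-Bb. The spread within groups was 1.28 for RT1-Ba and 1.17 for RT1-Bb (SD, log2), larger than in 94.6% and 92.3% of the tested probe sets. In model against control the difference of RT1-Ba was 0.30 (SE 0.833, limma adjusted p = 0.889). That of RT1-Bb was 0.77 (SE 0.764, limma adjusted p = 0.663).

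RT1-DMa and RT1-DMb encode the DM molecule that loads peptide onto class II. RT1-DMa was at 5.52, 4.41 and 4.57 in drug rats, against 5.16, 5.48 and 4.11 in model rats and 4.75, 3.80 and 4.69 in control rats. RT1-DMb was at 6.72, 5.91 and 6.58 in drug rats, against 6.33, 6.65 and 5.92 in model rats and 5.96, 5.65 and 6.27 in control rats. The spans, 3.31-fold and 2.11-fold, were narrower than those of the chain genes. Both were highest in drug 1 and lowest in control 2. The largest group difference of RT1-DMb was 0.45 (SE 0.311) in drug against control, with a limma adjusted p of 0.737.

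Ciita, the coactivator of the set, was dim in both of its probe sets, at the 53.7th and 46.6th percentile of mean signal. The brighter was at 4.0002, 3.17 and 3.76 in drug rats, against 4.17, 4.25 and 4.06 in model rats and 3.98, 3.26 and 3.31 in control rats. Its 3 model arrays lay above all 3 drug arrays and all 3 control arrays, the only member probe set of the 14 whose groups did not overlap in a comparison. Its difference was 0.64 (SE 0.377) in model against control and -0.51 (SE 0.377) in drug against model, with limma adjusted p of 0.482 and 0.998. The second probe set gave another picture, at 2.15, 1.197 and 3.64 in drug, 3.52, 3.99 and 3.65 in model and 3.88, 4.39 and 2.93 in control rats. There model and control overlapped and control 2 was the highest array, although that rat was lowest in 5 of the 8 genes. The 2 probe sets of Ciita thus disagreed, and no statement on Ciita rests on both.

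Over the whole table, 0 of 18625 probe sets passed an adjusted p of 0.05 in limma in any of the 3 comparisons or in the F test over the groups (0%). At an unadjusted p under 0.05 the F test gave 1387 (7.45%), and there were 2245 in model against control (12.1%), 610 for drug over or under model (3.28%) and 1345 for drug over or under control (7.22%). Of the 13 tested member probe sets, 0 were under that limit in each comparison, and the lowest unadjusted p in limma were 0.0846, 0.0602 and 0.0585. Groups without overlap made up 11.8% of all tested probe sets for higher in model than in control, and 4.7% for lower in drug than in model. The brighter Ciita probe set was the 1 member in each of these counts. Without regard to direction, the groups did not overlap in 22.6% of probe sets between model and control and in 8.05% between drug and model. Between drug and control the share was 12.5%, with 0 members among them.

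In model against control all 8 genes had a difference above 0 by their brightest probe set, from 0.007 for RT1-Da to 0.77 for RT1-Bb, with a median of 0.42. The median over all tested probe sets was 0.016. In the same comparison the Kupffer cell and macrophage list had a median of 0.77, with 11 of 14 genes above 0. Of its genes 4 were at an unadjusted p under 0.05 in limma and 0 at an adjusted one. With genes below the filter included, the median was 0.33 for the T and NK cell list (12 of 14 above 0). It was 0.41 for the dendritic cell list (7 of 10), 0.15 for the B cell list (6 of 9) and -0.19 for the monocyte list (3 of 8). The part of these cell types in the class II values was not tested. In drug against model 7 of 8 class II genes were below 0, with a median of -0.29 beside -0.02 over all tested probe sets. In drug against control 5 were above and 3 below, with a median of 0.098. These signs are not separate evidence, because many of the genes were correlated across rats, so that a single rat can shift many of them. Without control 2 and drug 3 the median in model against control was 0.10, and without model 2 it was 0.058. With a term for the Gapdh ratio in the fit it was 0.81, and without control 1 it was 0.67. Without normalization it was -0.00031, where the median over all tested probe sets was -0.40. In drug against model the median turned to 0.15 without model 2, and to 0.066 without drug 2. There it was -0.52 with the Gapdh term and -0.67 without drug 1. In drug against control it was -0.40 without control 2 and drug 3, and 0.54 without drug 2.

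**Figure D2:**
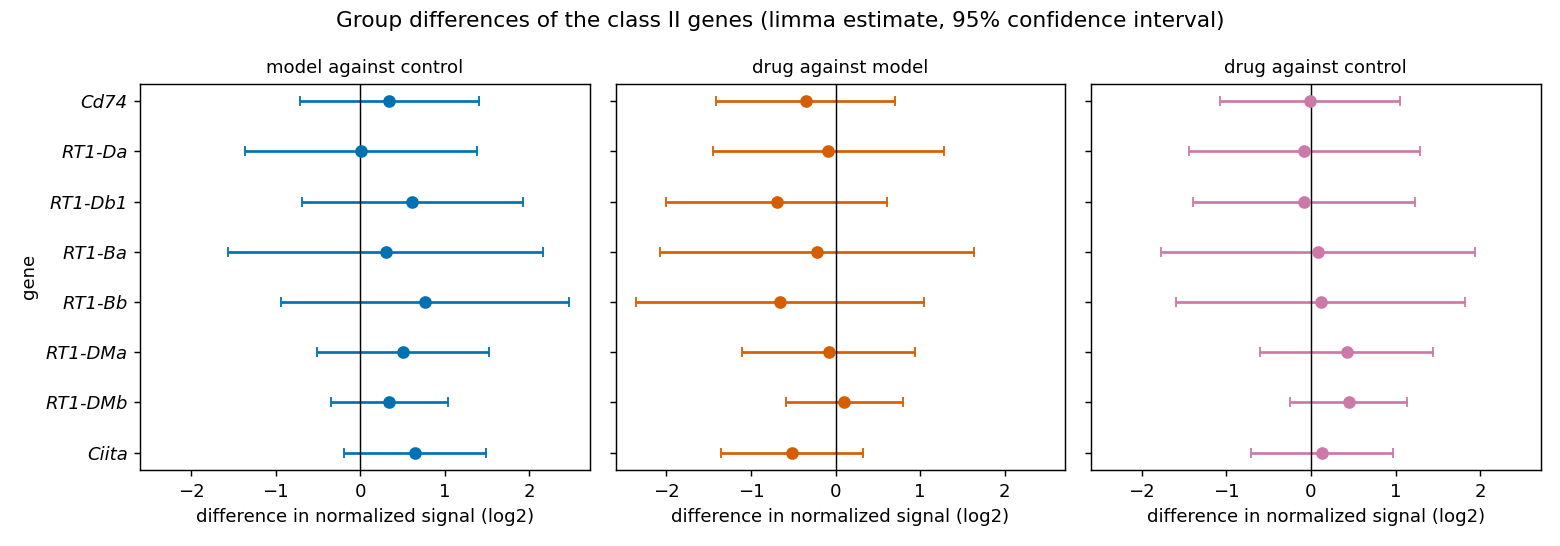
Group differences in normalized log2 signal (x axis) for each of the 8 genes (y axis), with the limma estimate as a point and its 95% confidence interval as a bar, in 3 panels for the 3 comparisons. Every interval spans 0, with the narrowest bars for RT1-DMb and the widest for RT1-Ba, and all 8 points in model against control lie at or right of 0.

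The intervals set what these 9 arrays leave possible. For Cd74 the 95% confidence interval of the difference in model against control ran from -0.71 to 1.40, and in drug against model from -1.41 to 0.70. For RT1-Ba it ran from -1.56 to 2.16 in model against control. The tightest interval there, that of RT1-DMb, ran from -0.35 to 1.03. In drug against model, a difference of 1 log2 unit in either direction lies inside the intervals of RT1-Da, RT1-Ba and RT1-Bb, and for Cd74 a difference of -1 does, so a missing call does not show equal levels.

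The share of variance that lay between the groups had a median of 13.5% over the 8 genes, against 26.7% over all tested probe sets. The spread within groups had a median of 0.790 against 0.494 (SD, log2). Not all members lay on that side. Ciita had a spread within groups of 0.344 and 49.4% of its variance between groups, and RT1-DMb had 0.373 and 28.1%. This is a description with no test, since the 8 genes do not vary independently.

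**Figure D3:**
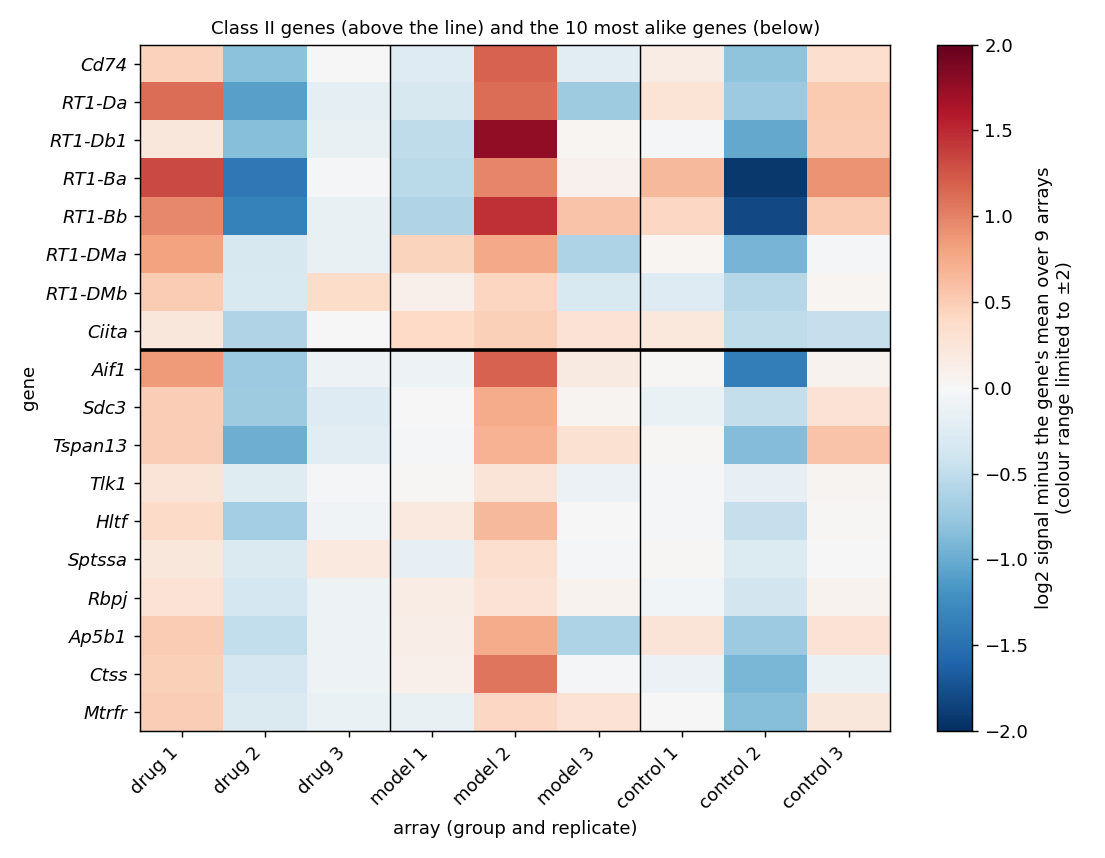
Deviation of each gene's log2 signal from its own mean over the 9 arrays (colour, limited to ±2), with genes as rows and arrays as columns in the order drug, model and control. The 8 class II genes stand above the line and the 10 genes most like them below. Model 2 and drug 1 are red and drug 2 and control 2 blue in all class II rows.

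How closely the genes moved together was measured by the correlation of every pair over the 9 arrays. Pearson r ran from 0.482 to 0.959 over the 28 pairs, with a median of 0.761, and 15 pairs passed an exact permutation test after Benjamini-Hochberg adjustment over the 28. Spearman rho passed in 16. The closest pair was Cd74 with RT1-Db1 (r = 0.959, rho = 0.917, exact permutation adjusted p = 0.00165 and 0.00525), followed by the chains of RT1-B, RT1-Ba with RT1-Bb (r = 0.956, rho = 0.933, adjusted p = 0.00165 and 0.0035 by the exact permutation test). RT1-DMa and RT1-DMb, the partners in DM, were at r = 0.850 and rho = 0.867 (exact permutation adjusted p = 0.0145 and 0.014).

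Cd74 and RT1-Da were each tied by r to 6 of their 7 partners at an adjusted p under 0.05. By rho Cd74 was tied to 5 and RT1-Da to 6. Ciita was tied to 0 of 7 by either coefficient. The r of Ciita ran from 0.482 with RT1-Da to 0.675 with RT1-Bb, with exact permutation adjusted p from 0.0703 to 0.187. Without normalization, where the arrays had no common scale, all 28 pairs passed the test, those of Ciita included. With the arrays' group means taken out, the median r of the 28 pairs was 0.816, so the pattern was as close inside the groups. The arrays share their normalization and RNA quality, and with the linear trend on the Gapdh ratio removed the median r was 0.774, with 16 pairs past the exact permutation test.

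Part of this rested on the extreme rats. After leaving out the 2 arrays farthest from the median of the pair's first gene, the median r was 0.512, between -0.199 for RT1-Ba with Ciita and 0.982 for Cd74 with RT1-Ba. The pairs of Cd74 with the 4 chain genes kept an r of at least 0.890 without model 2 and drug 2. There drug 1 and control 2 stayed in, with Cd74 at 8.01 in control 2 beside 7.997 in drug 2. These values thus do not show whether the Cd74 pairs hold without all the extreme rats. The pairs of RT1-Bb with RT1-DMa and RT1-DMb were at 0.344 and 0.258 without control 2 and drug 2, and had not passed the test with all arrays. The count of pairs past the test was 9 without control 2, 9 without model 2, and 8 without control 2 and drug 3 together. The median r in these settings was 0.685, 0.692 and 0.713. Fewer arrays also make the test harder to pass at a given r, so the counts alone do not show weaker correlations.

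**Figure D4:**
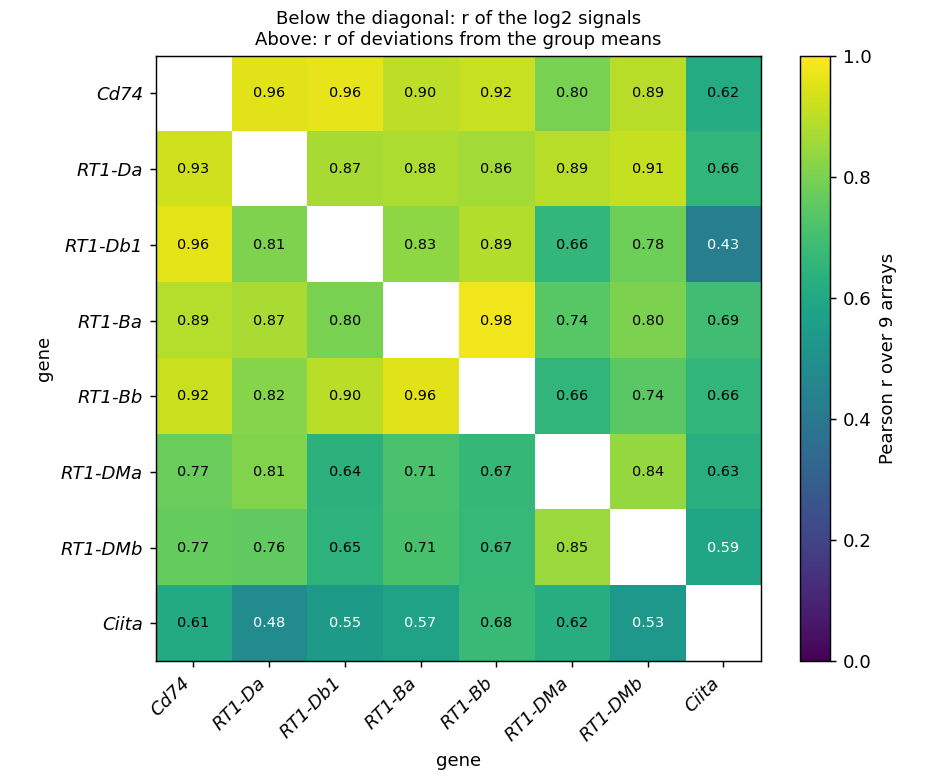
Pearson r over the 9 arrays for each pair of the 8 genes (colour and printed value), below the diagonal for the log2 signals and above it for deviations from the group means. Cd74 and the 4 chain genes form a block with r of at least 0.800, and the Ciita row is darkest, with r of at most 0.675 below the diagonal.

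Among 10431 other genes ranked by r with Cd74, RT1-Db1 came 1st, RT1-Da 2nd, RT1-Bb 4th and RT1-Ba 11th. RT1-DMa came 70th, RT1-DMb 76th and Ciita 313th. The median r of all genes with Cd74 was 0.010, and 7 genes were above 0.9.

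The genes most like the set were taken as the 10 with the highest r, among 10424 genes, with the mean deviation of the 8 genes over the 9 arrays. That mean, the class II level, was 0.70, -0.85 and -0.039 in drug, -0.16, 1.02 and -0.11 in model and 0.18, -1.04 and 0.29 in control rats. Aif1, a calcium-binding protein of macrophages and a member of the macrophage list used here, came first (r = 0.967, rho = 0.90). It was at 6.71, 5.14 and 5.75 in drug, 5.75, 7.03 and 6.04 in model and 5.88, 4.48 and 5.93 in control rats, highest in model 2 and drug 1 and lowest in control 2. Ctss, the cathepsin that cuts the invariant chain, was 9th (r = 0.902, rho = 0.667). The others were the syndecan Sdc3 (r = 0.932), the tetraspanin Tspan13 (0.925), the kinase Tlk1 (0.921), Hltf (0.921), Sptssa (0.907), Rbpj (0.906), Ap5b1 (0.903) and Mtrfr (0.891). They were picked for their likeness out of many genes, so these coefficients carry no test.

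The other genes of the class II pathway were taken from written lists. Of 21 regulators, 20 had a probe set and 16 passed the filter, and 0 passed the adjusted test in any comparison. Nfyb, a subunit of the Y box factor NF-Y, had the smallest p in model against control, at 6.22 ± 0.540 in model and 5.004 ± 0.708 in control livers (SD, n = 3), a difference of 1.22 with a limma adjusted p of 0.384. Rfxank, a subunit of the RFX complex, differed by 1.13 (limma adjusted p = 0.451). In drug against model the smallest p was that of Irf1, an interferon-induced factor known to act on the Ciita gene, at -0.69 (limma adjusted p = 0.998). The list's median difference was 0.33 in model against control and -0.083 in drug against model.

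Of 20 processing and transport genes 18 were measured and passed the filter, and 0 passed the adjusted test. Their median difference was 0.035 in model against control. It was -0.085 for drug over model and -0.067 for drug over control. Marchf1, the ligase that marks class II for breakdown, was at 4.04 ± 0.0400 in model and 2.68 ± 1.11 in control livers (SD, n = 3), a difference of 1.36 with a limma adjusted p of 0.401. Its control mean lay under the filter level, so the size is not exact. Kif5b, a microtubule motor, differed by 1.42 (limma adjusted p = 0.395). Ifi30, a thiol reductase of endosomes, differed by -0.43 in drug against model and Marchf8, a relative of Marchf1, by -0.35, with a limma adjusted p of 0.998 for both. The tetraspanin Cd82 differed by -0.61 in drug against control (limma adjusted p = 0.683). The level of the list was 0.094 in drug 1, -0.010 in drug 2, 0.11 in model 2 and -0.046 in control 2, on the same side of 0 as class II in these 4 arrays but closer to it. The list was highest in model 1, at 0.16, where class II was at -0.16. In control 1 it was at -0.10, where class II was at 0.18. Drug 3, model 3 and control 3 lay on the same side in both.

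Of 12 costimulation genes and class II ligands 8 had a probe set and 2 passed the filter, Cd86 and Icos, so the T cell side was mostly too dim to be tested. Icos differed by 1.001 in model against control (limma adjusted p = 0.401), and Cd86 by -0.53 in drug against model (limma adjusted p = 0.998). Of 18 class I presentation genes 16 were tested and 0 passed, with a median of -0.045 in model against control, of 0.097 for drug over model and of 0.17 for drug over control. The level of the class I list ran only from -0.22 to 0.29 over the arrays, against -1.04 to 1.02 for class II. RT1-M3-1, a class I gene, had the smallest p of the list, with a difference of 0.95 in model against control (limma adjusted p = 0.384).

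Markers of cells that carry class II were read in the same arrays. All 14 measured Kupffer cell and macrophage genes, of 18 in the list, passed the filter. Their mean deviation was 0.68, -0.094 and -0.24 in drug, 0.23, 0.74 and -0.086 in model and -0.34, -0.80 and -0.087 in control rats. Drug 1 and model 2 were thus also the high arrays and control 2 the low one, but drug 2, low in class II, lay in the middle. Cd163 and Cd5l had the smallest p of the list in model against control, with differences of 1.25 and 1.74 and a limma adjusted p of 0.373 for both.

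Of 14 B cell genes 8 of the 9 measured passed the filter, with Cd79b below it, and the list ran from -0.27 to 0.11 in drug, -0.17 to 0.79 in model and -0.54 to 0.33 in control rats. Ms4a1, the B cell marker CD20, was dim and differed by -1.36 in drug against model (limma adjusted p = 0.998). Of 14 dendritic cell genes 10 were measured and 6 passed, with Itgax, Flt3, Clec9a and Batf3 below the filter. That list ran from 0.16 to 0.33 in drug, -0.38 to 0.14 in model and -0.17 to 0.017 in control rats. Its level in model 2, -0.38, included Clec10a and Fscn1 at log2 levels of 0.17 and 1.71. Both were below the filter level and below their own means of 3.17 and 3.02. Irf8, Tcf4, Itgae and Cd83 were at 6.85, 7.01, 4.86 and 5.31 there, above their own means of 6.14, 6.45, 4.77 and 4.62. The T and NK cell list, 13 of 14 genes, was at 0.70 in model 2 and -1.15 in control 2, its highest and lowest arrays. It was at 0.39 in drug 1 and -0.19 in drug 2, so it lay on the same side of 0 as class II in these 4 arrays. Of 9 monocyte genes 5 passed, at 0.63 in drug 1 and -0.55 in drug 2, the highest and lowest of that list.

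Sinusoidal endothelium, 12 of 14 genes, ran from -0.33 to 0.39 without following class II. The 3 bile duct genes that passed, of 8, ran from -1.29 in model 3 to 0.59 in model 1. The 8 measured hepatocyte genes, of 10, ran from -0.24 to 0.095, and Alb was at a log2 level of at least 12.7 in every array. The part of these cell types in the class II values was not tested. The Gapdh ratio was 1.31 and 12.7 in the high arrays drug 1 and model 2, and 9.20 and 3.14 in the low arrays drug 2 and control 2. The same ratio for actin was 3.99 and 10.7 in drug 1 and model 2, and 11.5 and 8.41 in drug 2 and control 2. The part of RNA quality in the class II values was not tested.

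Further probe sets of RT1-Ba and RT1-Bb did not follow the brightest one. The second probe set of RT1-Bb, below the filter and not tested, was at 1.83, 0.51 and 5.86 in drug, -1.33, -0.83 and 1.35 in model and 0.62, 0.95 and 6.13 in control rats. Drug 3 and control 3 thus stood apart from the other 7 arrays, which were all below the filter level of 2.82, so the size of the gap is not exact, while the brighter RT1-Bb probe set read 6.67 in drug 3 and 7.33 in control 3, both below model 2. The second RT1-Ba probe set was also highest in drug 3 and control 3, at 6.79 and 6.51, with model 2 next at 6.13. The dimmest RT1-Ba probe set was highest in control 2 and drug 2, at 5.29 and 4.68, the arrays lowest in the brightest probe set. The third RT1-Ba probe set was highest in drug 3 at 5.84 and lowest in control 3 at 2.73. The RT1-B and RT1-D genes are known to be polymorphic between rat strains, and the haplotypes of these rats are not given in the sources used here.

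**Figure D5:**
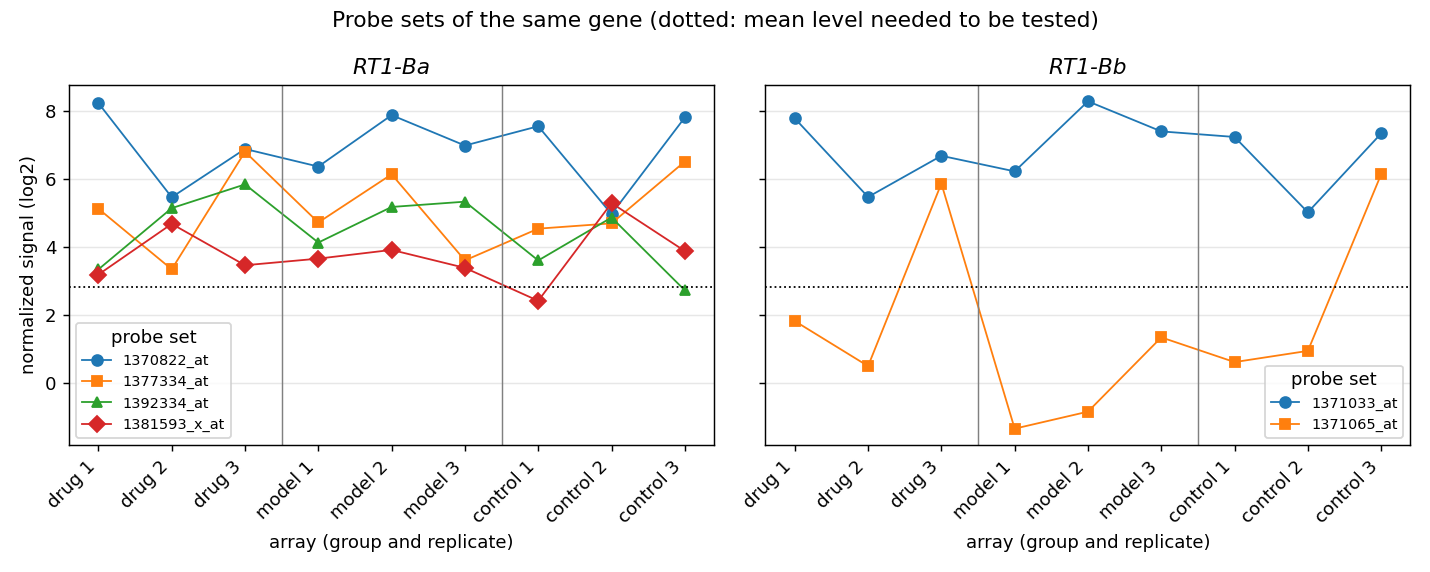
Normalized log2 signal (y axis) of each probe set of RT1-Ba (left) and RT1-Bb (right) in the 9 arrays (x axis), with lines joining the values of 1 probe set and a dotted line at the mean level needed for testing, 2.82. The second RT1-Bb probe set stands near 6 in drug 3 and control 3 and below the dotted line in the other 7 arrays.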

How the data were processed

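The authors deposited 1 linear signal intensity for each probe set and array. GCOS 1.2 made these intensities from biotin-labelled total RNA, per the submitters' processing notes and the labels' protocols, while its settings are not stated there. The 57 control probe sets were left out of the 31099. Log2 intensities of the other 31042 were quantile normalized, which takes away any true difference in total signal. Probe sets with a mean at or above the 40th percentile (log2 2.82) were kept, 18625 in all.

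Groups came from the labels. All arrays entered 1 limma fit (limma 3.58.1, R 4.3.3) with an intensity trend, two-sided, adjusted by Benjamini-Hochberg over all 18625. For each gene the probe set of highest mean signal was taken. Correlations were tested against all 362880 orders of the arrays. The scripts were tested on simulated data. The number of arrays limits the precision, and 3 against 3 arrays cannot give an exact permutation p under 0.1.

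The platform annotation gave 20826 probe sets 1 symbol and 436 several, and left 9780 unnamed here. List genes named are among the 2 with the smallest p of a list and comparison, and all 14 member probe sets were described. The genes most like the set were the 10 of highest r with its mean deviation. Members, lists, the promoter motif and alternatives were chosen with earlier results of these data known. Alternatives covered scaling, an offset of 16 units, filters, the trend, array weights, the replicate block, a Gapdh term and arrays left out, and, added after seeing the data, the correlations with the Gapdh trend removed or 1 array left out.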

Additional observations from a re-analysis of the deposited data

How the results depend on the processing

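The 3 group comparisons called 0 probe sets in the reported setting (limma, adjusted p under 0.05). Model against control gave 1 without normalization, 4 with array weights and 1 with control 1 and drug 1 left out. Drug against model gave 1 when only the 2 groups compared were fitted and 1 with control 1 and drug 1 left out. Leaving out 1 array in turn gave 0 to 1 in both, with the 1 without control 1, model 1 or model 2 in model against control and without control 1 in drug against model, and drug against control stayed at 0 in every setting run. The replicate numbers in the titles gave no clear pairing of the rats. Same-numbered arrays of different groups had correlations of deviations from -0.0052 to 0.48, and 3 of 9 arrays correlated best with their own number. The arrays numbered 1 were at 0.20, 0.39 and 0.48. With 3 rats in each group this check does not settle whether the numbers mark a pairing. With the replicate block, model against control gave 3 probe sets. No member probe set was called in any of these settings. The median difference of the 8 genes, which has no test, varied with the setting. It ran from -0.00031 to 0.81 in model against control, -0.78 to 0.15 in drug against model and -0.40 to 0.54 for drug over control. In model against control it was below 0 only without normalization, where the median over all tested probe sets was -0.40, and it was highest with the Gapdh term. In the other comparisons it changed sign. Of the 28 gene pairs, 15 passed the exact permutation test, against 28 without normalization, those of Ciita included. The count was 8 without control 2 and drug 3, 8 after leaving out control 1 with drug 1, and 9 to 20 with 1 array left out. The median r was 0.713 and 0.757 without these pairs of arrays and 0.68 to 0.81 with 1 array left out. At the 60th percentile filter the dimmer probe sets had no value. The cause of the following turns of sign was not tested, and none of these values had passed the test. With the arrays left unnormalized, the sign turned for Cd74 at -0.44, RT1-Da at -0.62, RT1-Ba at -0.21, RT1-DMb at -0.074, Cd86 at -0.17 and Pdia3 at -0.44 in model against control, for RT1-Da at 0.12 and RT1-DMa at 0.014 in drug against model, for RT1-Ba at -0.22, RT1-Bb at -0.18, Ciita at -0.16 and Alb at -0.092 in drug against control. With median centring, the sign turned for Cd74 at -0.11, RT1-Da at -0.29 and Pdia3 at -0.11 in model against control, for RT1-Da at 0.078 in drug against model. With 1 trimmed mean, the sign turned for RT1-Da at -0.064, the dimmest RT1-Ba at 0.034 and the second Ciita at 0.20 in model against control, for RT1-Db1 at 0.010 and the dimmest RT1-Ba at 0.052 in drug against control. With the offset, the sign turned for Spp1 at -0.058 in drug against model. With array weights, the sign turned for the second Ciita at 0.20 in model against control, for the third RT1-Ba at 0.34 and RT1-DMb at -0.021 in drug against model, for RT1-Ba at -0.19, the second RT1-Ba at 0.14 and RT1-Bb at -0.098 in drug against control. With the Gapdh term, the sign turned for the third RT1-Ba at -0.061 and Jchain at -0.047 in model against control, for the third RT1-Ba at 0.43 in drug against model, for Cd74 at 0.11, RT1-Da at 0.28 and Cd86 at 0.032 in drug against control. Leaving control 2 and drug 3 out, the sign turned for Cd74 at -0.0049, RT1-Da at -0.36, RT1-Ba at -0.60, the dimmest RT1-Ba at 0.50 and the second Ciita at 0.32 in model against control, for the second RT1-Ba at -0.58, RT1-DMa at 0.048, Cd86 at 0.040 and Epcam at -0.13 in drug against model, for the second RT1-Db1 at -0.49, RT1-Ba at -0.83, the dimmest RT1-Ba at 0.79, RT1-Bb at -0.66, Ciita at -0.059 and Cd86 at 0.27 in drug against control. Leaving control 1 and drug 1 out, the sign turned for the second Ciita at 0.068 in model against control, for the third RT1-Ba at 0.59 and RT1-DMb at -0.053 in drug against model, for RT1-Ba at -0.21, RT1-Bb at -0.095 and Spp1 at 0.24 in drug against control. Leaving out each array in turn gave, in drug against control, -0.36 to 0.35 for Cd74, -0.87 to 0.21 for Cd86, -0.049 to 0.37 for Ciita, -0.85 to 0.0074 for Epcam, -0.81 to 0.79 for RT1-Ba, -1.02 to 0.72 for the second RT1-Ba, -0.80 to 0.63 for the dimmest RT1-Ba, -0.63 to 0.70 for RT1-Bb, -0.66 to 0.44 for RT1-Da, -0.41 to 1.37 for the second RT1-Db1, -0.50 to 0.26 for RT1-Db1. Leaving out each array in turn gave, in drug against model, -0.64 to 0.12 for Cd74, -1.04 to 0.041 for Cd86, -0.46 to 0.54 for Epcam, -0.89 to 0.49 for RT1-Ba, -0.59 to 1.15 for the second RT1-Ba, -0.33 to 0.41 for the dimmest RT1-Ba, -0.64 to 0.60 for the third RT1-Ba, -0.49 to 0.20 for RT1-DMa, -0.085 to 0.36 for RT1-DMb, -0.66 to 0.46 for RT1-Da, -0.87 to 1.07 for Spp1. Leaving out each array in turn gave, in model against control, -0.13 to 0.60 for Cd74, -0.11 to 0.58 for Cd86, -0.42 to 0.32 for the second Ciita, -1.02 to 0.085 for Epcam, -0.60 to 0.81 for RT1-Ba, -1.09 to 0.20 for the second RT1-Ba, -0.93 to 0.50 for the dimmest RT1-Ba, -0.54 to 0.38 for RT1-Da, -0.052 to 1.09 for RT1-Db1, -1.42 to 0.52 for Spp1.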

Other observations

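The second, dim RT1-Bb probe set read 45.5 in drug 3 and 99.3 in control 3 in deposited signal, and 0.377 to 4.06 in the other arrays. On the log2 scale the other 7 arrays all lay below the filter level of 2.82, so no size or rank of the gap is given. This split was looked for after the values were seen and has no test. Drug 3 and control 3 did not share a group, and they lay on opposite sides in Xist.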
